A study of Mus musculus with 6 samples.

Results

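Liver RNA of 3 control mice and 3 mice that lost *Spns1* after birth was examined for 10 genes that carry fatty acids into the hepatocyte, hold them in the cytosol and activate them. The genes were taken by symbol from the 54532 genes of the deposited table. They are *Cd36*, *Slc27a2* and *Slc27a4* for uptake, *Fabp1*, *Fabp2* and *Fabp4* for binding, and *Acsl1*, *Acsl3*, *Acsl4* and *Acsl5* for activation. SPNS1 is a transporter that exports lysolipids from lysosomes. The gSpns1-cKO mice were Spns1 fl/fl and carried Rosa26Cre-ERT2, a tamoxifen-dependent Cre that acts in the whole body, so that loss was not limited to the liver. Per the methods, tamoxifen was injected at 50 mg/kg on postnatal days 11, 13 and 15 and removed exon 3 of *Spns1*. Controls are called wild type in the sample labels and Spns1 fl/fl littermates in the methods. Whether controls received tamoxifen, and the sex and age of the mice at collection, were not given in the sources used here.

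Long-chain fatty acids cross the cell membrane with the help of CD36, a scavenger receptor, and of fatty acid transport proteins of the SLC27A family. Inside the cell, fatty acid-binding proteins (FABPs) keep them soluble, and long-chain acyl-CoA synthetases (ACSLs) join them to coenzyme A, the step that commits them to oxidation or to storage in complex lipids. In hepatocytes many of these genes are targets of PPAR-alpha, a nuclear receptor that fatty acids activate. It binds as a pair with a retinoid X receptor to direct repeats of the motif AGGTCA spaced by a single base.

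Each library came from 1 mouse and held between 30350002 and 35295611 counts. Levels are given as CPM, which are counts scaled to a common library size with the factors of TMM (trimmed mean of M-values), and a floor of 3 counts lay between 0.0763 and 0.119 CPM. The groups separated on the first principal component, which took 74.6% of the variance. Counts of the targeted gene *Spns1* were 1008, 1562 and 875 for the control mice against 642, 1175 and 698 for gSpns1-cKO mice. Its level fell from 40.4 ± 8.98 to 22.1 ± 7.40 CPM (SD, n = 3 per group), a log2 fold change of -0.87 ± 0.25 (SE) with an edgeR adjusted p of 0.030. This call was lost without control mouse 2 (adjusted p = 0.0785), gSpns1-cKO mouse 1 (adjusted p = 0.0910) or gSpns1-cKO mouse 3 (adjusted p = 0.0830). Counts were per gene, so the loss of exon 3 itself cannot be seen in them. *Xist* had at most 5 counts and Y-linked *Ddx3y* was present in every library. Of 10 male-biased liver genes, 6 were called lower, against 20.5% of all tested genes. Among the 6 was *Cyp2d9*, whereas *Mup20* was not called (log2 fold change -4.22, edgeR adjusted p = 0.159). The list summed to between 7203 and 8246 CPM in control mice, against 1419, 510 and 486 CPM in gSpns1-cKO mice 1, 2 and 3. *Cyp2b9*, a female-biased gene, had 5, 4 and 22 counts in control mice and 143, 8277 and 7057 in gSpns1-cKO mice 1, 2 and 3 and was called higher (edgeR adjusted p = 0.0386). In both measures gSpns1-cKO mouse 1 was the nearest of its group to the controls.

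The stretches of DNA before the starts of *Fabp1*, *Fabp2* and *Cd36* are shown because these genes had the largest fold changes of the 10 and because *Fabp1* alone of those with an entry held a direct repeat. They were read from RefSeq on GRCm38.p6, which had an entry for 9 of the 10 genes and none for *Fabp4*. The window was the 250 bases before the start, numbered with -1 as the base next to it. Capitals mark a match, on either strand, to AGGTCA, to CCAAT or to the direct repeat, searched as AGGNCA, any base and AGGNCA again.

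Fabp1, chr6:71199629-71199826, plus strand: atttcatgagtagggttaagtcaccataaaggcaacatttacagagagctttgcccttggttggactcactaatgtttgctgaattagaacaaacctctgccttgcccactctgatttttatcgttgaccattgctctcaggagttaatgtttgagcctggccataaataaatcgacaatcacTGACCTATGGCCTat

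Fabp2, chr3:122894822-122895071, plus strand: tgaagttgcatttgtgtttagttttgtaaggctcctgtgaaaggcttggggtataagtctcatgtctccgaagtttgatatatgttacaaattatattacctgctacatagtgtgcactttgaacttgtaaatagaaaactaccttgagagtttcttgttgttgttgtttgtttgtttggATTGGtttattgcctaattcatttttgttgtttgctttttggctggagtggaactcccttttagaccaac

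Cd36, chr5:17835897-17836146, minus strand: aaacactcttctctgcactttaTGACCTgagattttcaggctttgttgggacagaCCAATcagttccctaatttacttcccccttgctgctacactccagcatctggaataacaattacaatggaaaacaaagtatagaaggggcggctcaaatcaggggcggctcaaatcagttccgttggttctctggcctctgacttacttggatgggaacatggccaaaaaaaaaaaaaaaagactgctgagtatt

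The *Fabp1* stretch ends at position -53 because GENCODE M21 places an exon from there on. The *Cd36* stretch lies inside the annotated *Cd36* locus but outside its exons. The direct repeat was found in 0.338% of all 32851 RefSeq promoter windows and, among the 9 genes with an entry, in *Fabp1* alone, where it spans positions -67 to -55 and reads TGACCTATGGCCT on the gene's strand. The single motif AGGTCA was found in 14.0% of all windows and occurred in *Cd36*, *Slc27a2* and *Fabp1*. All 250 bases of the *Slc27a2* window lie in annotated exons. In *Fabp1* the match from -67 to -62 is part of the direct repeat, and a further match from -9 to -4 lies in the annotated exon. CCAAT, found in 33.8% of all windows, occurred in *Acsl1*, *Acsl3*, *Acsl5*, *Cd36* and *Fabp2*. TATAAA, found in 12.4% of all windows, occurred in *Fabp1* alone, at -30 to -25, in the annotated exon and past the stretch shown.

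All 10 genes passed the filter on low counts, which kept 15449 genes. Expression of *Fabp1*, *Fabp2*, *Acsl1*, *Slc27a2* and *Slc27a4* fell in the gSpns1-cKO livers, and that of *Cd36*, *Fabp4* and *Acsl4* rose, whereas *Acsl3* and *Acsl5* did not pass the test. The 5 lower genes stand against 20.5% of all tested genes called lower and the 3 higher genes against 21.3% called higher, and 41.8% of all tested genes were called in either direction. The same 8 genes were those without overlap between the 3 control and the 3 gSpns1-cKO libraries, which was the case for 54.1% of all tested genes, 26.9% lower and 27.1% higher. The median log2 fold change was -0.55 over the 10 genes and 0.014 over all tested genes. For a single gene, an exact permutation test of 3 mice against 3 cannot go below p = 0.1, which was its value for each of the 8 genes.

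The sizes of these changes depended on how the libraries were scaled, because the TMM factors were 0.834 to 0.873 in control and 1.16 to 1.18 in gSpns1-cKO libraries. With library size only, the median log2 fold change of all tested genes was 0.46, with 7289 genes called higher and 970 lower, and the same 8 of the 10 genes were called in the same directions. Scaled to the summed counts of 12 hepatocyte marker genes, an alternative chosen after seeing the data, the median of all genes was 0.64. Log2 fold changes were then -1.94 for *Fabp1*, -1.06 for *Fabp2*, -0.87 for *Slc27a2* and -0.50 for *Acsl1*, all still called lower, and 2.15 for *Cd36*, 1.26 for *Fabp4* and 1.01 for *Acsl4*, all still called higher.

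**Figure D1:**
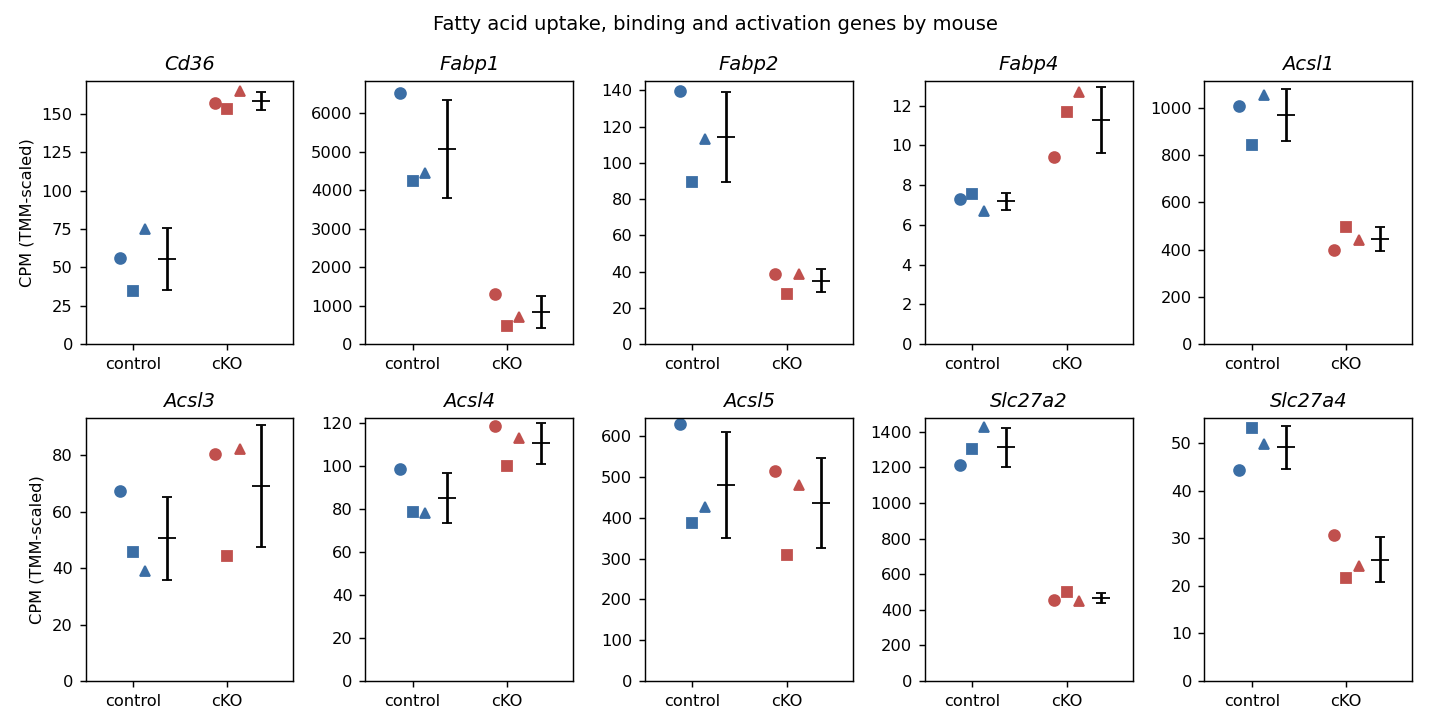
Level of each of the 10 genes in CPM in every library, on a linear axis from 0 for each gene, with control mice in blue, gSpns1-cKO mice (cKO) in red and the group mean ± SD (n = 3) in black beside them. The points of the groups do not overlap for 8 genes and overlap for *Acsl3* and *Acsl5*.

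Among the binding proteins, *Fabp1*, the liver FABP and the main fatty acid carrier of the hepatocyte cytosol, had the largest change of the 10 genes. It had 183512, 130219 and 112190 counts in control mice 1, 2 and 3 and 47013, 18466 and 28118 counts in gSpns1-cKO mice 1, 2 and 3. In CPM these were 6527, 4229 and 4433 against 1307, 481 and 715. The lowest control library was thus far above the highest gSpns1-cKO library, while gSpns1-cKO mouse 1 was the highest of its group. The mean fell from 5063 ± 1272 to 834 ± 425 CPM, 6.07-fold lower, with a log2 fold change of -2.60 ± 0.38 (95% interval -3.49 to -1.71, edgeR adjusted p = 0.00145). The gene lies on chromosome 6 from 71199827 to 71205023 on the plus strand (ENSMUSG00000054422, GRCm38), and the direct repeat shown above is before its start.

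*Fabp2* encodes the intestinal FABP, which is known best from enterocytes. In control mice 1, 2 and 3 it had 3923, 2760 and 2869 counts, against 1397, 1062 and 1525 in gSpns1-cKO mice 1, 2 and 3, or 140, 89.6 and 113 against 38.8, 27.7 and 38.8 CPM. All gSpns1-cKO libraries were below all control libraries, and control mouse 1 was the highest, as for *Fabp1*. The level fell 3.25-fold, from 114 ± 25.0 to 35.1 ± 6.43 CPM, with a log2 fold change of -1.70 ± 0.19 (edgeR adjusted p = 0.000178). Of 7 enterocyte markers, *Alpi*, *Sis* and *Rbp2* had no count in any library and *Lct* had at most 1. *Anpep*, which is also made outside the gut, had 4078, 5341 and 4674 counts in controls against 3213, 3648 and 3576 in gSpns1-cKO livers (log2 fold change -0.87, edgeR adjusted p = 0.000374). *Vil1* had 5, 1 and 0 counts against 23, 20 and 24 and was called higher. The list summed to 145 to 185 CPM in controls and to 90.0 to 95.7 CPM in gSpns1-cKO livers, and its part in the change of *Fabp2* was not tested. The gene spans 122895072 to 122899506 on the plus strand of chromosome 3 (ENSMUSG00000023057) and overlaps 4933405D12Rik on the other strand, which had at most 10 counts in a library.

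*Fabp4*, the FABP of adipocytes and macrophages, was the lowest of the 10 genes and moved in the other direction. Its counts were 205, 232 and 170 in control mice and 339, 449 and 498 in gSpns1-cKO mice, which gave 7.29, 7.53 and 6.72 against 9.42, 11.7 and 12.7 CPM. The groups did not overlap, although gSpns1-cKO mouse 1 was closest to the controls. The rise from 7.18 ± 0.419 to 11.3 ± 1.67 CPM was 1.57-fold, with a log2 fold change of 0.65 ± 0.15 (edgeR adjusted p = 0.00724). It is located on chromosome 3 from 10204088 to 10208576 on the minus strand (ENSMUSG00000062515). Of 7 adipocyte markers, *Adipoq* had at most 2 counts in a library, *Plin1* at most 1 and *Lep* none. The list summed to 12.7 to 17.3 CPM in gSpns1-cKO livers against 29.2 to 60.3 CPM in controls, a sum that does not rest on these genes. Only 3 were tested: *Cidec* (log2 fold change -3.34, edgeR adjusted p = 0.00406) and *Cfd* (-10.4, adjusted p = 0.0245) were called lower and *Adrb3* (0.055, adjusted p = 0.867) was not called. The relation of the list to *Fabp4* was not tested.

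Among the proteins of uptake, *Cd36* was the only one of the 3 genes that rose. It had 1587, 1061 and 1898 counts in control mice 1, 2 and 3 and 5655, 5869 and 6479 in gSpns1-cKO mice 1, 2 and 3, that is 56.4, 34.5 and 75.002 against 157, 153 and 165 CPM. The gSpns1-cKO libraries were close to each other and all above the controls, which were spread more widely. The coefficient of variation was 3.79% in gSpns1-cKO mice and 36.7% in control mice. Its mean rose 2.86-fold, from 55.3 ± 20.3 to 158 ± 6.01 CPM, with a log2 fold change of 1.52 ± 0.25 (95% interval 0.93 to 2.11, edgeR adjusted p = 0.00283). *Cd36* lies on chromosome 5 from 17781690 to 17888801 on the minus strand (ENSMUSG00000002944).

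Hepatocytes are not the only liver cells that express *Cd36* and *Fabp4*, and in bulk RNA fewer cells of a type and less RNA per cell cannot be told apart. Marker genes of several cell types moved between the groups, where 21.3% of all tested genes were called higher and 20.5% lower. Of 13 macrophage markers, 12 were called higher and none lower, and their summed level was between 223 and 375 CPM in control livers and between 926 and 1226 CPM in gSpns1-cKO livers. The 5 Kupffer cell markers, such as *Cd5l* and *Clec4f*, were all called higher, with sums of 126 to 215 against 429 to 680 CPM. Markers of liver sinusoidal endothelium rose for 5 of 8 genes, with sums of 238 to 250 against 307 to 357 CPM, and 1 of 4 tested markers of continuous endothelium, *Cd34*, rose, with sums of 71.3 to 77.9 against 78.8 to 97.2 CPM. Stellate cell markers rose for 5 of 7 genes (176 to 206 against 460 to 529 CPM), and cholangiocyte markers for 5 of 6 (21.5 to 22.02 against 39.4 to 51.8 CPM). Of 12 hepatocyte markers, among them *Alb* and *Apoa1*, 7 were called lower and none higher, and their sum was between 138000 and 145260 CPM in control livers and between 85347 and 98424 CPM in gSpns1-cKO livers. With library size only, 1 of the 12 was called lower and 2 higher. The part of these shifts, and of the shift in sex-biased genes, in the changes of the 10 genes was not tested.

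**Figure D2:**
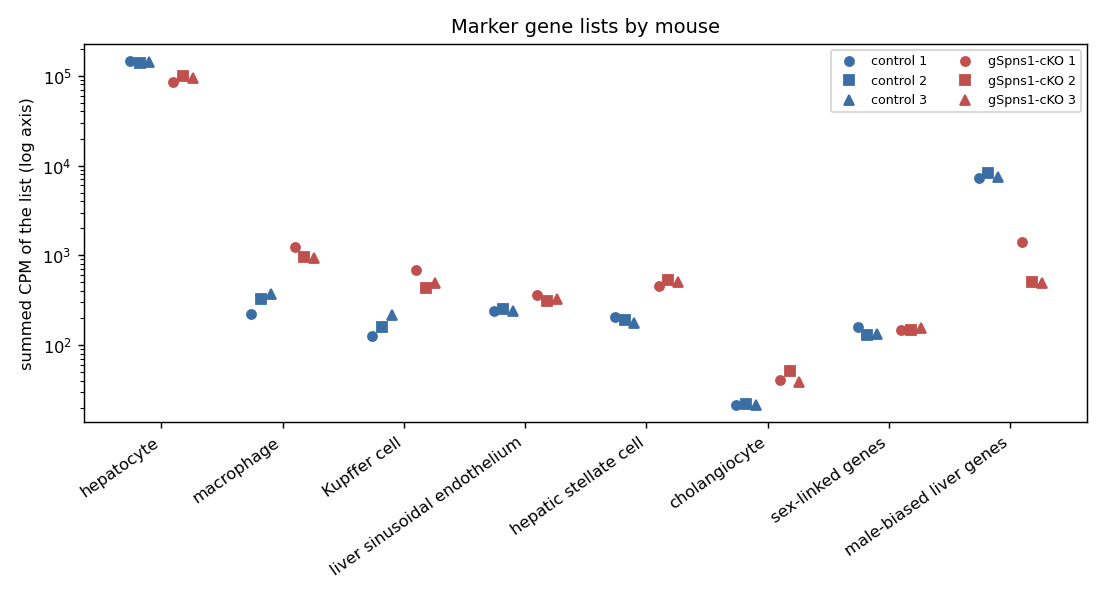
Summed level of each marker gene list in CPM (log axis) in every library, with control mice in blue and gSpns1-cKO mice in red. Macrophage markers sum to 223 to 375 CPM in control livers and to 926 to 1226 CPM in gSpns1-cKO livers, and hepatocyte markers are lower in gSpns1-cKO livers.

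*Slc27a2* encodes FATP2, a transport protein of the hepatocyte that also activates very-long-chain fatty acids. There were 34073, 40116 and 36193 counts in control mice and 16318, 19150 and 17716 in gSpns1-cKO mice, or 1212, 1303 and 1430 against 454, 499 and 451 CPM. Replicates were close in both groups and the groups were far apart. The level fell 2.81-fold, from 1315 ± 110 to 468 ± 27.2 CPM, with a log2 fold change of -1.49 ± 0.14 (edgeR adjusted p = 4.83e-05), which was the smallest adjusted p of the 10 genes. *Slc27a2* spans 126552407 to 126588243 on the plus strand of chromosome 2 (ENSMUSG00000027359) and overlaps Gm26697 on the other strand, which had at most 11 counts in a library.

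*Slc27a4*, which encodes FATP4, a broadly expressed acyl-CoA synthetase of the same family, had 1245, 1639 and 1262 counts in the controls, against 1106, 828 and 945 in gSpns1-cKO livers. In CPM these were 44.3, 53.2 and 49.9 against 30.7, 21.6 and 24.0. Its groups did not overlap, and the raw counts of control mice 1 and 3 were close to those of gSpns1-cKO mouse 1. It fell 1.93-fold, from 49.1 ± 4.52 to 25.5 ± 4.74 CPM, with a log2 fold change of -0.95 ± 0.14 (edgeR adjusted p = 0.000553). When libraries were scaled to the hepatocyte markers, the change was -0.31 and the adjusted p 0.151. The gene lies on chromosome 2 from 29802634 to 29817522 on the plus strand (ENSMUSG00000059316).

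The make-up of the *Slc27a* family was compared as each gene's percentage of the family's summed counts per kilobase, which does not depend on the scaling between libraries. *Slc27a2* took 43.9%, 43.5% and 43.5% in control mice and 33.4%, 30.9% and 31.1% in gSpns1-cKO mice. *Slc27a5*, the liver FATP that also activates bile acids, took 54.4%, 54.6% and 55.0% against 64.1%, 67.4% and 67.0%. The difference between the groups was -11.8 percentage points for *Slc27a2* and 11.5 for *Slc27a5* (exact permutation test, two-sided, p = 0.1 for each, adjusted p = 0.12 over 6 shares). *Slc27a5* itself also fell, from 1071 ± 101 to 634 ± 70.6 CPM, by a log2 fold change of -0.76 ± 0.15 (edgeR adjusted p = 0.00293), which was not called with library size only (-0.31, adjusted p = 0.0989) or with hepatocyte marker scaling (-0.14, adjusted p = 0.415). *Slc27a4* took 1.39 ± 0.113% and 1.49 ± 0.399% of the family (exact permutation p = 0.8, adjusted p = 0.8), and *Slc27a1*, *Slc27a3* and *Slc27a6* together with it took only small shares.

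Of the activating enzymes, *Acsl1*, the main long-chain acyl-CoA synthetase of liver, fell. Counts were 28314, 25979 and 26674 in control mice and 14284, 19031 and 17368 in gSpns1-cKO mice, or 1007, 844 and 1054 against 397, 496 and 442 CPM. No gSpns1-cKO library came near a control library. The decrease from 968 ± 110.5 to 445 ± 49.6 CPM was 2.18-fold, with a log2 fold change of -1.12 ± 0.15 (edgeR adjusted p = 0.000355). *Acsl1* is on chromosome 8 from 46471037 to 46536051 on the plus strand (ENSMUSG00000018796) and overlaps Gm45244 on the other strand, which had at most 4 counts.

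*Acsl4*, the isoform that prefers arachidonic acid, reached 2769, 2418 and 1978 counts in the controls, against 4263, 3825 and 4430 in gSpns1-cKO livers. In CPM these were 98.5, 78.5 and 78.2 against 119, 99.7 and 113. Control mouse 1 and gSpns1-cKO mouse 2 were next to each other, so that the groups were separated by a narrow gap. The 1.30-fold rise from 85.1 ± 11.6 to 110.3 ± 9.63 CPM was the smallest of the called changes, with a log2 fold change of 0.37 ± 0.13 (95% interval 0.095 to 0.66, edgeR adjusted p = 0.0359). The call was lost without control mouse 2 (adjusted p = 0.123), control mouse 3 (0.138), gSpns1-cKO mouse 1 (0.0823) or gSpns1-cKO mouse 3 (0.107). *Acsl4* lies on chromosome X from 142317993 to 142390535 on the minus strand (ENSMUSG00000031278).

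*Acsl3*, a synthetase of the endoplasmic reticulum and lipid droplets, was counted 1890, 1403 and 985 times in controls, against 2901, 1698 and 3238 in gSpns1-cKO livers, or 67.2, 45.6 and 38.9 against 80.6, 44.3 and 82.4 CPM. gSpns1-cKO mouse 2 lay within the control range and the other gSpns1-cKO mice above it. The log2 fold change of 0.45 ± 0.31 had a 95% interval of -0.30 to 1.196 (edgeR adjusted p = 0.289), and without gSpns1-cKO mouse 2 it was 0.69 with an adjusted p of 0.0366. On chromosome 1, where *Acsl3* spans 78657825 to 78707743 on the plus strand (ENSMUSG00000032883), *Utp14b* overlaps it on the same strand, so reads of the 2 genes may be hard to assign. *Utp14b* had 292, 210 and 194 counts in control and 708, 585 and 728 in gSpns1-cKO livers (log2 fold change 1.10 ± 0.17, edgeR adjusted p = 0.000805).

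*Acsl5*, a synthetase of mitochondria and endoplasmic reticulum, was counted 17696, 11908 and 10787 times in controls, against 18558, 11889 and 18927 in gSpns1-cKO livers. Its levels of 629, 387 and 426 CPM in control mice and 516, 309.9 and 481 CPM in gSpns1-cKO mice overlapped. The log2 fold change was -0.14 ± 0.24 (95% interval -0.67 to 0.39, edgeR adjusted p = 0.662), an interval that leaves room for a change in either direction, and its sign changed with the scaling. *Acsl5* is found on chromosome 19 from 55251938 to 55297720 on the plus strand (ENSMUSG00000024981). It overlaps *Zdhhc6* on the other strand, which fell by 0.63 on the log2 scale (edgeR adjusted p = 0.00136), and whether counting used strand was not given in the sources used here.

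**Figure D3:**
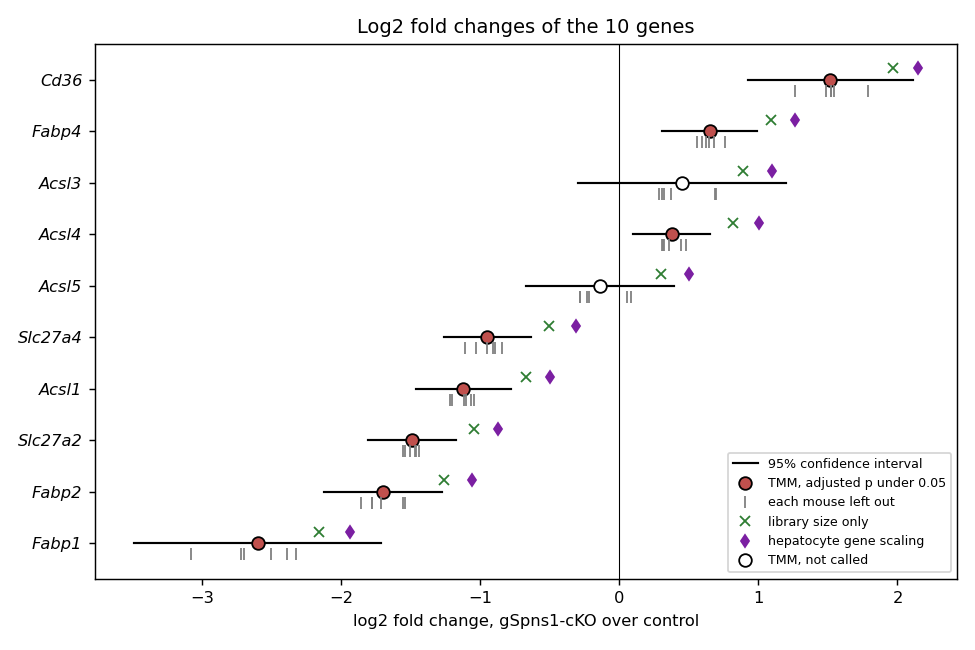
Log2 fold change of each of the 10 genes, gSpns1-cKO over control, as circles (filled where called) with 95% intervals from edgeR (n = 3 per group), with ticks for fits that left out a mouse, crosses for library size only and diamonds for hepatocyte marker scaling. The intervals of *Acsl3* and *Acsl5* include 0, that of *Fabp1* runs from -3.49 to -1.71, and that of *Cd36* from 0.93 to 2.11.

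Within the *Acsl* family the shares of summed counts per kilobase moved apart. *Acsl1* took 37.1%, 43.5% and 47.5% in control mice and 20.5%, 33.9% and 23.3% in gSpns1-cKO mice. The difference was -16.8 percentage points (exact permutation p = 0.1, adjusted p = 0.125 over 5 shares), and -18.9 by counts without length. The deposited length was 10483 bases for *Acsl1* and 4864 for *Acsl5*, so *Acsl1* stands lower against *Acsl5* per kilobase than by counts. The share of *Acsl4* went from 7.24 ± 0.540% to 12.2 ± 0.886% and that of *Acsl3* from 5.28 ± 0.925% to 9.25 ± 1.73%, each without overlap (exact permutation p = 0.1, adjusted p = 0.125). *Acsl5* took 44.8 ± 4.54% and 52.6 ± 6.22%, with overlap between the groups (exact permutation p = 0.2, adjusted p = 0.2). None of these shares could pass a threshold of 0.05 with 3 mice against 3. *Acsl6*, the isoform of brain, had 7, 15 and 5 counts in controls, against 1, 0 and 0 in gSpns1-cKO livers.

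**Figure D4:**
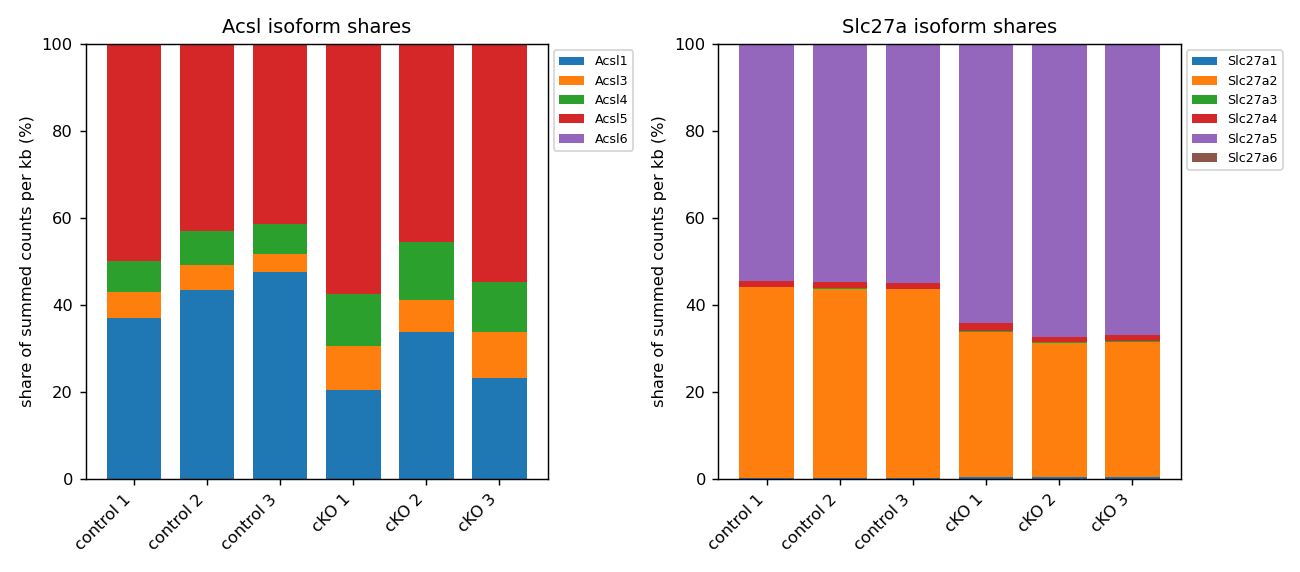
Stacked bars of the share (%) of each isoform in the summed counts per kilobase of the *Acsl* family (left) and of the *Slc27a* family (right), with a bar for each control and gSpns1-cKO (cKO) mouse. *Acsl1* takes 37.1% to 47.5% in control and 20.5% to 33.9% in gSpns1-cKO mice, and *Slc27a2* 43.5% to 43.9% in control and 30.9% to 33.4% in gSpns1-cKO mice.

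Levels of different genes were compared as CPM per kilobase of the deposited gene length. In control livers *Fabp1* was far above the others, at 9156 ± 2300.2 CPM per kilobase, followed by *Slc27a2* at 350.3 ± 29.2. *Fabp2* (118 ± 25.9), *Acsl5* (98.8 ± 26.8) and *Acsl1* (92.4 ± 10.5) came next and lay within each other's spread. *Acsl4* (15.7 ± 2.15), *Cd36* (15.4 ± 5.65), *Acsl3* (11.6 ± 3.40) and *Slc27a4* (11.1 ± 1.02) followed, each overlapping its neighbour in this order within 1 SD, whereas *Acsl4* and *Slc27a4* did not overlap. *Fabp4* was lowest at 1.60 ± 0.0934 CPM per kilobase. Its deposited length of 4489 bases is that of the whole annotated locus, introns included. Its level and rank per kilobase may therefore be too low in both groups. In gSpns1-cKO livers *Fabp1* (1509 ± 769.4) and *Slc27a2* (125 ± 7.24) remained first and second. *Cd36*, at 44.1 ± 1.67 CPM per kilobase, then stood beside *Acsl1* (42.4 ± 4.73) and *Fabp2* (36.4 ± 6.66), below *Acsl5* (89.6 ± 22.7) and above *Acsl4* (20.4 ± 1.78) and *Acsl3* (15.9 ± 4.94). *Slc27a4* (5.77 ± 1.07) and *Fabp4* (2.51 ± 0.371) were again the lowest.

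Mice of a group also differed in these genes. Control mouse 1 was the highest of the controls for *Fabp1*, *Fabp2*, *Acsl3*, *Acsl4* and *Acsl5*, and gSpns1-cKO mouse 2 was the lowest of its group for *Fabp1*, *Fabp2*, *Cd36*, *Acsl3*, *Acsl4*, *Acsl5* and *Slc27a4*. *Fabp1* was the most variable of the called genes in gSpns1-cKO livers, with a coefficient of variation of 51.0% against 25.1% in control livers.

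Beyond the 10 genes, 98 different genes in 6 lists of related genes were examined, of which 85 were tested, 12 were called higher and 43 lower (*Acot1* is in 2 lists and is counted once here), with a median log2 fold change of -0.54. These counts stand against 21.3% of all tested genes called higher and 20.5% called lower. With library size only, 20 of the related genes were called higher and 25 lower, and scaled to the hepatocyte markers 25 and 14. Among the other FABPs, 2 of 7 were tested. *Fabp7*, the brain FABP, had 49, 61 and 45 counts in control and 380, 391 and 398 in gSpns1-cKO livers and rose from 1.83 ± 0.128 to 10.3 ± 0.236 CPM (log2 fold change 2.48 ± 0.17, edgeR adjusted p = 7.32e-06). *Fabp5*, the epidermal FABP, varied widely, with 183, 94.1 and 46.9 CPM in control and 83.5, 45.2 and 72.5 CPM in gSpns1-cKO livers (log2 fold change -0.69 ± 0.57, edgeR adjusted p = 0.393).

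Of 14 genes of fatty acid uptake and supply, 4 rose and 6 fell, against 4 higher and 2 lower with library size only and 5 and 2 with hepatocyte marker scaling. Over all tested genes, 21.3% were called higher and 20.5% lower. *Lpl*, which encodes the lipase that frees fatty acids from circulating triglycerides, had 363, 403 and 356 counts in controls, against 8425, 14101 and 11112 in gSpns1-cKO livers. Every gSpns1-cKO library was thus far above every control, and the level rose 22.1-fold, from 13.4 ± 0.623 to 294.8 ± 67.5 CPM (log2 fold change 4.46 ± 0.18, edgeR adjusted p = 2.84e-07). *Vldlr*, a receptor for triglyceride-rich lipoproteins, rose by 3.08 ± 0.66 on the log2 scale (edgeR adjusted p = 0.0130), from 24, 25 and 43 counts to 123, 605 and 352. *Ffar4*, a fatty acid receptor, was called higher on few counts, 3, 4 and 1 against 10, 48 and 20. *Mfsd2a*, a transporter of lysophosphatidylcholine, had a log2 fold change of -1.49 ± 0.25 (edgeR adjusted p = 0.00267).

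Of 14 other acyl-CoA synthetases, 10 were tested, 5 fell and none rose, against 4 lower and 1 higher with library size only and 2 lower and 1 higher with hepatocyte marker scaling. The share called was near the 41.8% of all tested genes called in either direction, where 20.5% were lower and 21.3% higher. Among the 5 lower synthetases were 3 medium-chain enzymes, *Acsm2* (log2 fold change -1.71, edgeR adjusted p = 0.0219), *Acsm1* (-1.08, adjusted p = 0.00021) and *Acsm5* (-0.81, adjusted p = 0.000421). *Acsm2* rested on few counts, 15, 38 and 24 in controls against 14, 12 and 5 in gSpns1-cKO livers. Scaled to the hepatocyte markers, *Acsm2* (adjusted p = 0.0925) and *Acsm5* (adjusted p = 0.226) were no longer called. *Acsf2*, another acyl-CoA synthetase, fell from 255.5 to 78.8 CPM (log2 fold change -1.70, edgeR adjusted p = 5.78e-05). Among acyl-CoA-binding proteins and thioesterases, 10 of 19 tested fell and 4 rose, against 5 and 5 with library size only and 1 lower and 5 higher with hepatocyte marker scaling. The same shares of all tested genes, 20.5% lower and 21.3% higher, stand beside these counts. *Dbi*, the acyl-CoA-binding protein, fell from 1353 ± 140 to 579 ± 195 CPM (log2 fold change -1.23 ± 0.23, edgeR adjusted p = 0.00206), a call that was lost with hepatocyte marker scaling (-0.58, adjusted p = 0.0732). *Acot1*, a cytosolic thioesterase, fell from 45.2 ± 10.7 to 2.81 ± 1.26 CPM (log2 fold change -4.01 ± 0.38, edgeR adjusted p = 0.000506), and *Acot9*, a mitochondrial thioesterase, rose (log2 fold change 1.42, adjusted p = 0.000562).

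Of 22 tested PPAR-alpha targets outside the 10 genes, 17 fell, against 20.5% of all tested genes, and 1 rose, against 21.3%. Their median log2 fold change was -1.01. Among the lowest were *Acot1*, *Angptl4*, an inhibitor of lipoprotein lipase (log2 fold change -2.86, edgeR adjusted p = 0.00326), *Acaa1b*, a peroxisomal thiolase (-2.03, adjusted p = 0.000425), and *Vnn1* (-1.99, adjusted p = 0.000601). *Pdk4*, a kinase that restrains glucose oxidation, was the 1 that rose (log2 fold change 1.11 ± 0.23, edgeR adjusted p = 0.00411). With library size only, 13 of these targets were called lower and 1 higher, with a median of -0.56. Scaled to the hepatocyte markers, 9 were called lower and 4 higher, with a median of -0.38. Among 19 regulators, 6 fell and 2 rose, and the share called was near the 41.8% of all tested genes called in either direction. With library size only 2 were lower and 8 higher, and with hepatocyte marker scaling 1 and 9. *Cux2*, a factor of female-biased expression in liver that was chosen here after its values were seen, had 19, 8 and 5 counts in controls, against 38, 1511 and 1379 in gSpns1-cKO livers (log2 fold change 6.04, edgeR adjusted p = 0.0557), again with gSpns1-cKO mouse 1 apart. *Ppargc1a*, a coactivator of PPAR-alpha, rose from 9.37 ± 1.45 to 23.1 ± 8.94 CPM (log2 fold change 1.30 ± 0.28, edgeR adjusted p = 0.00822). The related *Ppargc1b* went the other way (log2 fold change -1.18, edgeR adjusted p = 0.0192). That call was lost with library size only (-0.74, adjusted p = 0.0925). *Rxra*, the partner of PPAR-alpha, fell from 550 ± 82.0 to 302 ± 29.9 CPM (log2 fold change -0.87 ± 0.15, edgeR adjusted p = 0.00147) and *Creb3l3*, a liver factor of fasting, by 1.35 on the log2 scale (edgeR adjusted p = 8.79e-05). With hepatocyte marker scaling *Creb3l3* was still called (-0.72) and *Rxra* was not (-0.25, adjusted p = 0.203). *Ppara* itself had 65.6, 59.2 and 79.6 CPM in control and 43.1, 52.2 and 47.8 CPM in gSpns1-cKO livers, a log2 fold change of -0.51 ± 0.13 (edgeR adjusted p = 0.00997) that became -0.066 with library size only and 0.11 when scaled to the hepatocyte markers, neither of them called. *Pparg* was at 17.4 ± 2.23 and 17.3 ± 1.86 CPM (log2 fold change -0.01, edgeR adjusted p = 0.958), but 0.43 with library size only (adjusted p = 0.0247).

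**Figure D5:**
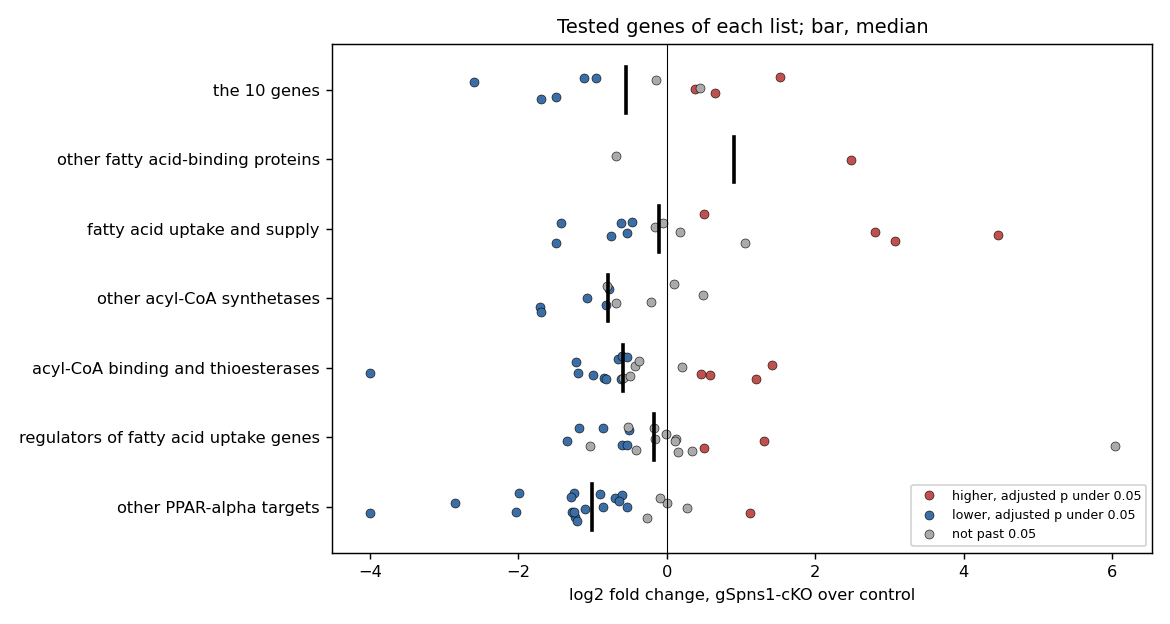
Log2 fold change, gSpns1-cKO over control, of each tested gene among the 10 genes and in the 6 lists of related genes, with called higher genes in red, called lower genes in blue, others in grey and a bar at each median. Of the other PPAR-alpha targets 17 are called lower and 1 higher, *Lpl* lies at 4.46, and the grey point at 6.04 is *Cux2*, described in the text.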

How the data were processed

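RNA-seq of liver was analysed from 3 control and 3 gSpns1-cKO mice, with groups taken from the sample labels. The authors deposited whole-number counts per gene, together with FPKM values and gene lengths. The submitters' processing notes name fastp, HISAT2 2.0.5, featureCounts 1.5.0-p3 and mm10. The poly-A libraries were sequenced by a commercial service, and the strand setting of the counting was not given in the sources used here. Group means and the authors' own fold changes and p-values were deposited too and were not used. In the deposited FPKM the library total was between 0.837 and 0.880 times the summed counts in control and between 1.17 and 1.20 times in gSpns1-cKO libraries. Gene length as deposited was used for CPM per kilobase. Where that length includes the exons of long rare transcripts, a gene is understated per kilobase.

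Counts were fitted in R 4.3.3 with edgeR 4.0.16 (filterByExpr, TMM, quasi-likelihood test, no covariate, Benjamini-Hochberg adjustment over all 15449 genes tested, threshold 0.05), after a check on simulated data. Values are mean ± SD over 3 mice, log2 fold changes ± SE. Floors cover counting error only. No replicates of a group were duplicates (chi-square per gene 38.8 to 114). DESeq2 1.42.0, limma-voom (limma 3.58.1), other scalings, other filters, a stricter threshold, a replicate block and leaving out each mouse were the alternatives.

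The 10 genes and all lists were chosen with earlier results of these data known. Genes named are the 10, *Spns1*, up to 4 called genes per list by size of change, *Ppara*, *Pparg*, *Rxra*, *Slc27a5*, *Fabp5* and *Acsl6*, the most abundant or absent markers, and sex-linked genes. Overlapping genes, *Cd34*, *Cux2* and *Pdk4* were named after their values were seen. A gene that the rule selects, and the summed level of its marker list, are not reported here.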

Additional observations from a re-analysis of the deposited data

How the results depend on the processing

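The calls of *Cd36*, *Fabp1*, *Fabp2*, *Fabp4*, *Acsl1* and *Slc27a2* were the same in direction and side of the threshold in all 16 alternatives, with log2 fold changes of 1.26 to 2.15, -3.08 to -1.94, -1.86 to -1.06, 0.56 to 1.26, -1.22 to -0.50 and -1.56 to -0.87. DESeq2 and limma-voom called the same 8 genes. *Slc27a4* lost its call only when scaled to the hepatocyte markers (added after seeing the data), *Acsl4* lost it at a threshold of 0.01 and without each of 4 mice, and *Acsl3* gained it with the hepatocyte scaling (1.09, adjusted p = 0.0191) and without gSpns1-cKO mouse 2. *Acsl5* changed sign with library size only (0.30) and with hepatocyte scaling (0.50), and ran from -0.28 to 0.087 when each mouse was left out. The median log2 fold change of all tested genes was 0.46 with library size only, 0.14 with upper-quartile scaling and 0.64 with hepatocyte scaling, by construction of the scalings. Of all genes, 3286 were called higher and 3166 lower, against 7289 and 970 with library size only, 9067 and 581 with hepatocyte scaling, and 1983 and 1907 at 0.01. Of the related genes, 20 were called higher and 25 lower with library size only, 25 and 14 with hepatocyte scaling, and 7 higher at 0.01. *Spns1* (-0.87) was not called at 0.01 or with library size only (-0.43), upper-quartile scaling (-0.74) or hepatocyte scaling (-0.27), and ran from -1.18 to -0.68 when each mouse was left out. The share difference of *Slc27a1* was 0.368 percentage points by counts without length. Deviations of same-numbered mice from their group means were hardly correlated (0.037, 0.033 and -0.028). With 3 mice per group this cannot exclude a pairing, and the labels give only the number. With a replicate block the log2 fold change of *Spns1* was -0.90 ± 0.11 (SE, edgeR adjusted p = 0.000679) and that of *Fabp1* -2.70 ± 0.21. A fit with the replicate block called 3084 genes higher and 3016 lower, with 3 of the 10 genes higher and 5 lower as without it, and 47 related genes lower. The call of *Acsl4*, the smallest called change of the 10 genes, held in 11 of 16 alternatives. What size of change can be called with 3 mice per group depends on each gene's spread and was not computed.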
